A study of Mus musculus with 9 samples.

Results

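The genes described here are 39 mouse genes of ceramide and sphingolipid metabolism, taken by symbol from a fixed list and found among the 52550 gene rows of a count table. The list leaves out the sphingosine kinases, the sphingosine 1-phosphate lyase and the sphingosine 1-phosphate receptors. The table covers 9 RNA sequencing libraries from haematopoietic stem cells, each made from 1000 bone marrow cells sorted as Lin- Sca1+ c-Kit+ CD48- CD150+. Young wild-type (WT) libraries came from mice aged 2 months (n = 3). Old WT libraries came from mice aged 22 to 24 months (n = 3). Old KO libraries (n = 3) came from mice in the same old age range, with the genotype B6N.129S6-Sphk2tm1Rlp/J, which the labels also call Sphk2 cKO. No agent is named for any group, and no Cre driver is named for the KO. Since the 3 libraries of a type are labelled technical replicates and no mouse is named, p-values cover the spread among these samples alone, which may be technical.

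Sphingolipids are built on a long-chain base. Serine palmitoyltransferase joins serine and palmitoyl-CoA in the endoplasmic reticulum, Orm proteins restrain it, and ceramide synthases then attach a fatty acid to give ceramide after desaturation. Ceramide receives a head group to become sphingomyelin or glucosylceramide. Sphingomyelinases and lysosomal hydrolases return it, and ceramidases release sphingosine, the substrate of the kinases that the study addresses. In blood stem cells ceramide and its products are known for roles in survival and stress responses.

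The groups differed in how much of each library came from genes. Counts in genes ranged from 28088637 to 74021822 for young WT, from 3145167 to 5115003 for old WT and from 11284847 to 17544945 for old KO. The share of counts outside genes was 6.51% to 12.5%, 80.8% to 87.7% and 45.0% to 61.9% in the same order. Olfactory receptor genes, which these cells have no use for, set each library's background (reads per exon base over 1134 such genes, without the densest 1%). Being above background took 20 or more counts and 5 or more times that density. Per kb of exon and scaled to counts in genes (RPKM), it was 0.0159 to 0.0459 for young WT, 1.72 to 3.02 for old WT and 0.316 to 0.646 for old KO. Protein-coding genes above it numbered 7379 to 8122, 640 to 1129 and 2877 to 4171 of 21819. Of 8 markers of stem cells and the sort, 7 passed this threshold in 2 or more libraries of young WT, 0 of old WT and 6 of old KO. Kit, Ly6a, Mecom and Ptprc were above it in no old WT library. Summed levels of 9 granulocyte and monocyte markers were 718 to 1079 CPM for young WT. They were 682 to 1177 CPM for old WT and 1130 to 2155 CPM for old KO. Of these 9, 6 passed the threshold in 2 or more libraries of young WT, 2 of old WT and 4 of old KO. Prtn3 passed it in every library, with 1139 CPM in old WT library 2, and Mpo and Ctsg in no old library. The 7 erythroid markers summed to 65.7 to 447 CPM for young WT, 13.0 to 19.7 CPM for old WT and 3.36 to 5.32 CPM for old KO, with 0 of 7 above background in any old library. The part of these differences in the results below was not tested. Counts for Sphk2 itself were 1684, 88 and 576 for young WT libraries 1, 2 and 3, against 20, 1 and 35 for old WT and 12, 23 and 8 for old KO. Its CPM range was 0.456 to 2.04 for old KO, below that of young WT (3.13 to 22.8) and within that of old WT (0.318 to 10.2).

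Most of the sphingolipid genes were measurable in young stem cells and few were in old ones. The number above background was 25, 24 and 18 of 39 for young WT, 3, 1 and 0 for old WT and 6, 9 and 13 for old KO libraries 1, 2 and 3. Of all 117 pairs of gene and library in each group, 67 were above background for young WT, 4 for old WT and 28 for old KO. In young WT 13 genes were above background in all 3 libraries, 12 in 2, 4 in 1 and 10 in none. In old KO the corresponding numbers were 3, 4, 11 and 21, and in old WT they were 0, 0, 4 and 35. The level needed to pass also rose with a library's background, and its part in these numbers was not tested. Gba2 passed at 0.405 CPM in young WT library 1 and did not at 28.1 CPM in old WT library 3. Because these are bulk libraries, fewer cells that express a gene and less RNA of it per cell cannot be told apart.

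**Figure D1:**
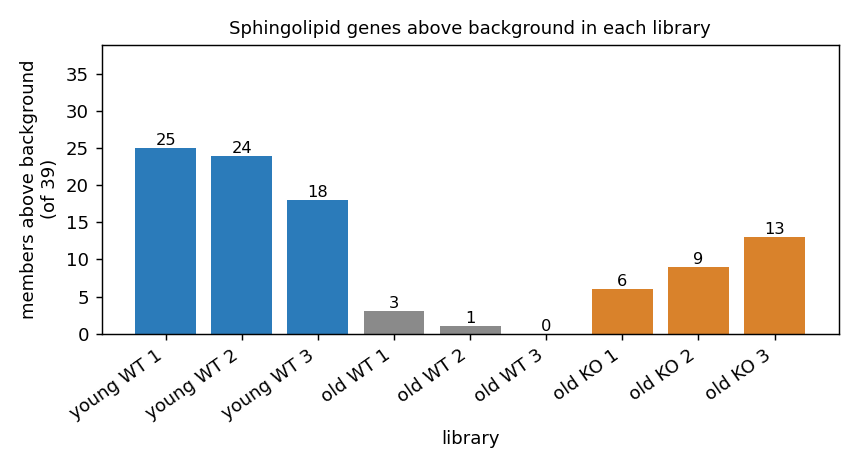
Number of the 39 sphingolipid genes (y axis) above the background of each of the 9 libraries (x axis), with 1 bar per library coloured by group. The young WT bars stand at 25, 24 and 18, the old WT bars at 3, 1 and 0 and the old KO bars at 6, 9 and 13.

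This ordering was shared with protein-coding genes in general. Of the 25 sphingolipid genes found above background in 2 or more of the young WT libraries, 12% were above it in at least 1 old WT library, against 20.6% of the 7728 protein-coding genes that met the same condition. In old KO, 60% of the 25 were above background in at least 1 library and 28% in at least 2, against 62.5% and 33.4% of protein-coding genes. Detection was also uneven between libraries of 1 group. Among the 18 genes above background in any old KO library, 61.1% were so in 1 library, against 54.0% of 5932 protein-coding genes. Among the 29 detected in young WT, 13.8% were so in 1 library, against 24.6% of 10248 protein-coding genes. A single gene dominated the family's summed level in some old libraries. Hexa made up 50.3% of it in old WT library 1, Glb1 59.1% in old WT library 2 and Sgms1 44.4% in old KO library 2. The top gene made up 30.4% in old KO library 1 and 34.7% in old KO library 3. In old WT library 3 the top gene, Galc, made up only 8.76%, and no gene exceeded 20.1% in a young WT library.

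**Figure D2:**
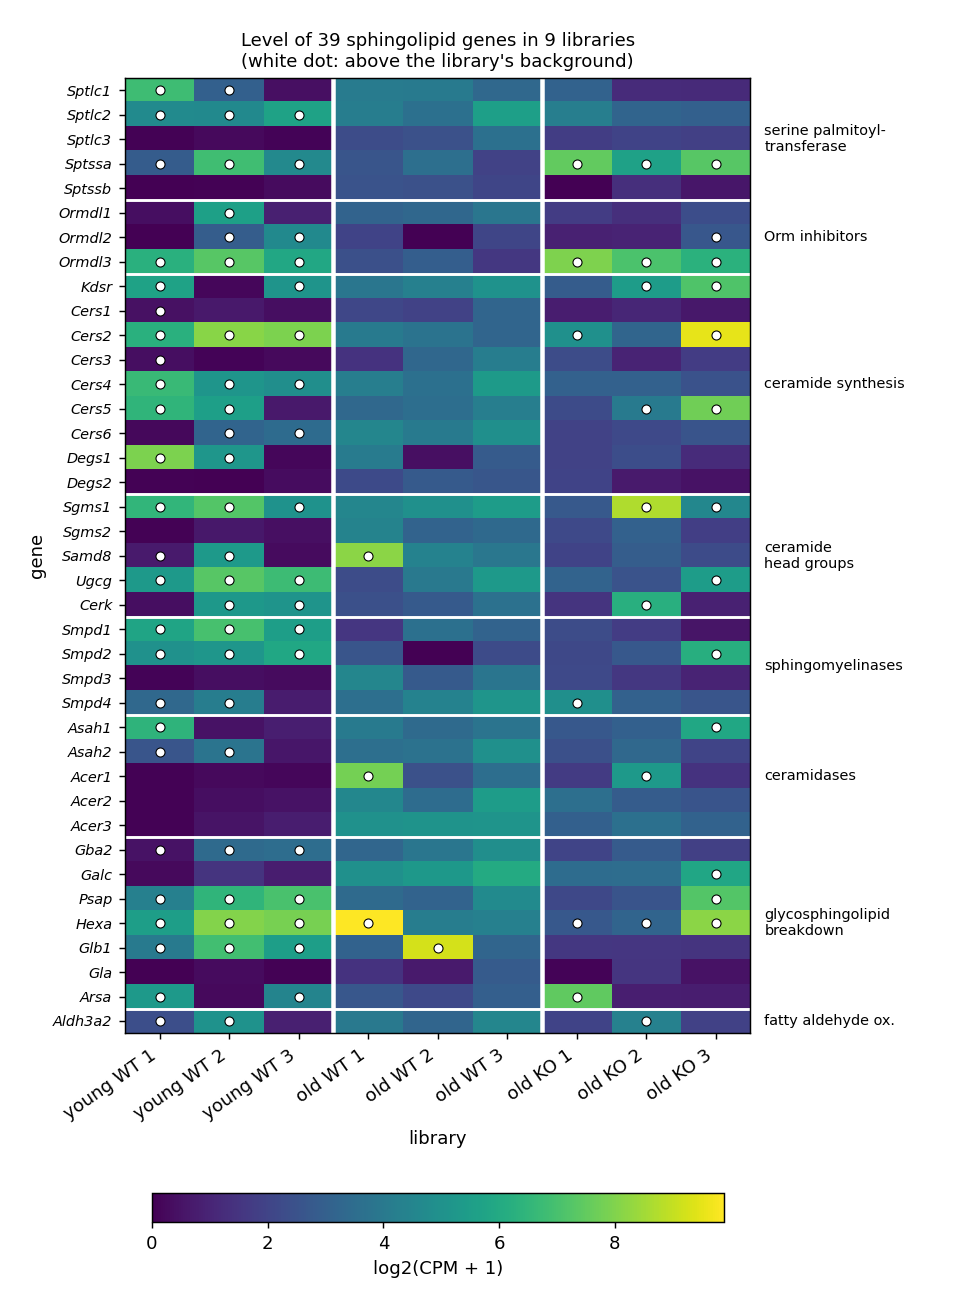
Level of each of the 39 genes (y axis, ordered by pathway step) in each of the 9 libraries (x axis) as log2(CPM + 1), the colour scale, with a white dot where the gene was above that library's background. Old WT columns have 4 dots (Hexa, Samd8 and Acer1 in library 1 and Glb1 in library 2), and most old KO dots sit in 1 or 2 libraries per gene.

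Levels are CPM, the gene's counts scaled to the library's total in genes. Fold changes are log2 values from edgeR's quasi-likelihood fit to all 32582 genes tested. The standard error (SE) after ± was derived as the size of the fold change over the square root of its F statistic. A gene was "called" at a Benjamini-Hochberg adjusted p under 0.05 over all genes tested. All 39 genes passed the filter on low counts. In old WT against young WT, 68.4% of all tested genes were called higher and 3.48% lower, and the median over all tested genes was 5.30. Of the sphingolipid genes 12 were called higher and 4 lower, 23 were not called, and their median was 0.31. The 12 called higher were at background in old WT, apart from Acer1 in 1 library, and are treated at the end. With TMM factors, which moved the median gene by -3.90, 4 were called higher and 17 lower, as were 18.6% and 18.4% of all tested genes. In old KO against old WT, 0.00614% of tested genes were called in either direction and 0 of the 39, with 7 of the 39 and 29.2% of tested genes at an unadjusted p under 0.05. For that comparison TMM factors called 1 of the 39 (0.457% of all tested genes) and moved the median gene by 1.88, and limma-voom called 1 (0.979%). DESeq2 called 7 of the 21 it gave an adjusted p (23.8% of all such genes), and a fit to the 6 compared libraries called 7 of the 39 (28.9%). In old KO against young WT, 52.7% of tested genes were called higher and 3.93% lower, against 9 and 4 of the 39. TMM factors moved the median gene there by -2.01 and called 1 higher and 5 lower, as they did 6.92% and 5.84% of tested genes. The comparisons share groups: old WT against young WT and old KO against old WT both use the old WT libraries. After subtraction of the background, 25 of the 39 genes were fitted and 0 were called in each comparison.

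Serine palmitoyltransferase, the first and rate-limiting enzyme, has the catalytic pair Sptlc1 and Sptlc2, the alternative subunit Sptlc3 and the small activating subunits Sptssa and Sptssb. Sptssa was above background in every young WT and every old KO library and in no old WT library. It was at 6.25, 115 and 23.8 CPM in young WT, against 5.08, 11.1 and 2.90 CPM in old WT and 182, 49.2 and 159 CPM in old KO. All old KO values lay above all old WT values, the young WT range overlapped both, and the old WT values were 0.633 to 4.26 times background. The fold change was 4.36 ± 1.37 in old KO against old WT, which was not called (edgeR adjusted p = 0.150) although DESeq2 (5.84) and the 6-library fit (4.35) called it. It was -2.92 ± 1.28 in old WT against young WT, just outside the threshold (edgeR adjusted p = 0.0505). Old WT against young WT was called for Sptssa when young WT library 1 or 3 or any 1 old KO library was left out (log2 fold change -3.44 to -2.92), and with TMM factors (-6.44), DESeq2 (-6.25) and no filter (-2.92).

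Sptssa lies at chr12:54645392-54656573 on the minus strand of GRCm38. The DNA directly upstream of its start is shown for Sptssa and for Ormdl3, described next, since in this family these were the genes whose old KO and old WT ranges did not overlap with old KO higher. The sequences are from RefSeq's GRCm38.p6 promoters, 5′ to 3′ on the gene's strand, at chr12:54656574-54656822 and chr11:98587369-98587495. They are clipped where the 250 bases before the RefSeq start run into the gene span of GENCODE M21. Capitals mark the CCAAT box (CCAAT, or ATTGG on the other strand) and the GC box (GGGCGG, or CCGCCC).

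Sptssa: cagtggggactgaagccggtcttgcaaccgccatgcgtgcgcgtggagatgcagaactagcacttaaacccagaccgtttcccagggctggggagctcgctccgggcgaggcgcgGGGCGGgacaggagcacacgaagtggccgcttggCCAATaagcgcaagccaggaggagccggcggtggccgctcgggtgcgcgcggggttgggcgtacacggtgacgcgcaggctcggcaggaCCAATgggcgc

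Ormdl3: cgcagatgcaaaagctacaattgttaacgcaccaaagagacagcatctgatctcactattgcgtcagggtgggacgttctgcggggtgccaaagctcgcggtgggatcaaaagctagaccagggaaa

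The whole 250-base window of Sptssa held 2 CCAAT boxes and 1 GC box. That of Ormdl3 held 2 GC boxes, both in the part that overlaps the gene span and is not printed, and 0 CCAAT boxes. Promoters of 37 of the 39 genes were matched, all but Asah1 and Smpd3. The GC box, searched on both strands like the others, was in 25 of these 37 and in 32.9% of all 27025 windows of that length, and the CCAAT box in 12 and 34.5%. The E-box CACGTG was in 8 of 37 and 6.05%, and the AP-1 motif TGACTCA in 3 of 37 and 4.43%. These matches describe the letters in the windows and say nothing of which factor binds.

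The catalytic subunits were measured mainly in young cells. Sptlc1 was at 110, 7.26 and 0.322 CPM in young WT, against 16.2, 15.9 and 8.99 CPM in old WT and 7.65, 1.33 and 1.25 CPM in old KO. Its young WT values spanned the whole range of the others, and it was above background only in young WT libraries 1 and 2. Sptlc2 was at 25.2, 24.9 and 50.5 CPM in young WT, against 17.0, 11.4 and 47.0 CPM in old WT and 17.6, 8.15 and 7.12 CPM in old KO. It was above background in every young WT library and in no old library, where it reached at most 4.36 times background. Sptlc3 and Sptssb were above background in no library.

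The Orm proteins hold serine palmitoyltransferase in check when ceramide is plentiful. Ormdl3, at chr11:98581256-98587368 on the minus strand, was above background in every young WT and old KO library and in no old WT library. It was at 76.1, 158 and 59.2 CPM in young WT, against 4.30, 6.68 and 2.03 CPM in old WT and 248, 134 and 77.7 CPM in old KO. Old WT values lay below all others and at 0.308 to 1.78 times background, while old KO and young WT values overlapped. Ormdl3 fell in old WT against young WT by 4.49 ± 1.19 on the log2 scale (edgeR adjusted p = 0.00322, lower in 3 of 3 libraries), and the call held in each of the 9 fits that left out 1 library. Against old WT, old KO was at 5.14 ± 1.23, which was not called (edgeR adjusted p = 0.146) although TMM factors, DESeq2, limma-voom and the 6-library fit each called it. Against young WT, old KO was at 0.65 ± 1.03 (edgeR adjusted p = 0.602), a direction that turned with TMM factors (-1.45) and DESeq2 (-1.71).

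The other Orm genes were seen in fewer libraries. Ormdl2 was at 0, 6.44 and 24.8 CPM in young WT, against 2.93, 0 and 3.19 CPM in old WT and 0.892, 0.975 and 5.47 CPM in old KO, above background in young WT libraries 2 and 3 and old KO library 3. Of its exon bases 66.7% are shared with Dnajc14 on the opposite strand, so reads of these genes cannot be told apart without a known strand setting. Ormdl1 was above background only in young WT library 2, at 48.3 CPM.

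**Figure D3:**
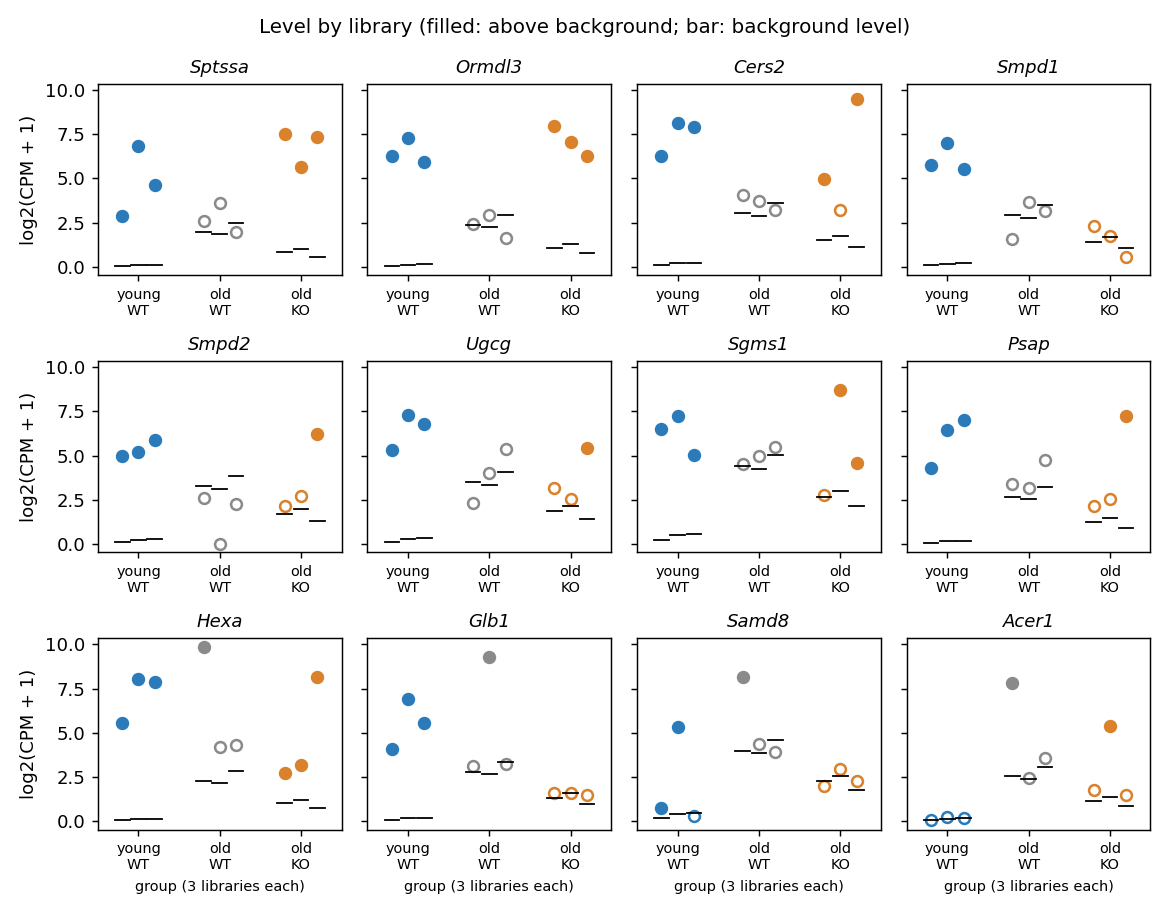
Level as log2(CPM + 1) (y axis) of 12 genes in the 3 libraries of each group (x axis), filled where above background, with the library's background level for that gene as a black bar. Ormdl3 and Sptssa are filled in every young WT and old KO library and open in old WT, and Hexa, Glb1, Samd8 and Acer1 each have 1 high old WT library.

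Ceramide itself is made by ketosphinganine reduction (Kdsr), acylation (Cers1 to Cers6, each preferring fatty acids of certain lengths) and desaturation (Degs1 and Degs2). Cers2, the synthase for very long-chain ceramides, had the highest mean level in young WT of the 39 genes, at 199 ± 108 CPM (SD, n = 3). Cers2 was at 75.8, 279 and 241 CPM in young WT, against 15.4, 12.4 and 8.41 CPM in old WT and 29.9, 8.24 and 720 CPM in old KO. Young WT and old WT values did not overlap, while the old KO libraries ran from below the old WT range to above the young WT range. The old WT values were 0.758 to 2.17 times background, so no old WT library was above it. Old KO libraries 1 and 3 were above background. Cers2 fell in old WT against young WT by 4.04 ± 1.45 on the log2 scale (edgeR adjusted p = 0.0197, lower in 3 of 3 libraries). The call was lost without old WT library 3 (-3.83) and with a minimum of 50 counts in 3 libraries (-4.04). DESeq2 gave no adjusted p, and so no call, for Cers2. Its change of 4.38 ± 1.48 in old KO against old WT (edgeR adjusted p = 0.153) rested on old KO library 3, without which it was 0.66. The change in old KO against young WT was 0.35 ± 1.28 (edgeR adjusted p = 0.830), and without old KO library 3 it was -3.38 and called. The gene lies at chr3:95314791-95323599.

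Degs1, which puts in the double bond that turns dihydroceramide into ceramide, was uneven within young WT. It was at 241, 35.3 and 0.129 CPM in young WT, against 16.4, 0.318 and 6.09 CPM in old WT and 2.90, 4.08 and 1.31 CPM in old KO. The third young WT library lay below every old library, and no old library was above background. Degs1 fell by 5.06 ± 1.89 on the log2 scale in old KO against young WT (edgeR adjusted p = 0.0334, lower than 2 of 3 young WT libraries). That call was lost without young WT library 1 (-2.68) and without old KO library 1 (-5.10), 2 (-5.45) or 3 (-4.72), and with limma-voom (-2.20), the 50-count minimum or the 6-library fit (-5.06 each). Its old WT to young WT change was -3.59 ± 1.77 and was not called (edgeR adjusted p = 0.0788). TMM factors (-7.97), DESeq2 (-8.04), no filter (-3.59) and leaving out young WT library 3 (-4.17) each gave a call. Old KO against old WT was at -1.47 ± 1.64 (edgeR adjusted p = 0.464), and its sign turned with TMM factors (0.29).

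Cers4, which favours long to very long fatty acids, was at 101, 34.9 and 28.2 CPM in young WT, against 17.8, 11.4 and 41.2 CPM in old WT and 7.28, 7.44 and 4.56 CPM in old KO. The old KO values were the lowest of the 9 but stood at 0.940 to 1.19 times background, and the old WT values at 0.542 to 1.11 times, so neither old group had Cers4 above its background. Cers4 fell in old KO against young WT by 3.09 ± 1.17 on the log2 scale (edgeR adjusted p = 0.0354, lower in 3 of 3 libraries). The call was lost without young WT library 1 (-2.29), old WT library 1 or 3 (-3.09 each) or any 1 old KO library (-3.21 to -2.90), and in the 6-library fit (-3.09). DESeq2 gave no adjusted p, and so no call, for Cers4 in this comparison. Its change in old WT against young WT was -1.23 ± 1.10 (edgeR adjusted p = 0.334; called with TMM factors, -5.61) and old KO against old WT at -1.87 ± 1.12 (edgeR adjusted p = 0.223; 0.14 with TMM factors).

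Cers5, which favours palmitate, was at 87.6, 47.0 and 0.580 CPM in young WT, against 9.19, 10.8 and 17.7 CPM in old WT and 3.79, 15.8 and 215 CPM in old KO. The highest value was again in old KO library 3, and the young WT range enclosed the old WT one. Its changes were -1.84 ± 1.54 in old WT against young WT (edgeR adjusted p = 0.298) and 2.64 ± 1.59 in old KO against old WT (edgeR adjusted p = 0.223), and the latter became -0.36 without old KO library 3. TMM factors (-6.12) and DESeq2 (-6.16) called the former, and DESeq2 (4.57) the latter. Kdsr, the reductase, was at 50.2, 0.142 and 33.7 CPM in young WT, against 13.9, 18.8 and 32.2 CPM in old WT and 6.39, 42.8 and 141 CPM in old KO. It was above background in 2 young WT and 2 old KO libraries, with the highest level in old KO library 3. Cers6 was at 0.162, 8.01 and 10.02 CPM in young WT, against 22.3, 15.9 and 29.3 CPM in old WT and 2.82, 3.54 and 4.96 CPM in old KO. Its old WT values were the highest yet only 1.04 to 1.30 times background, whereas young WT libraries 2 and 3 were 23.2 and 24.6 times background.

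Head groups are added to ceramide by sphingomyelin synthase (Sgms1 and Sgms2), the related ceramide phosphoethanolamine synthase Samd8, glucosylceramide synthase (Ugcg) and ceramide kinase (Cerk). Ugcg, the entry to glycosphingolipids, was at 38.9, 159 and 109 CPM in young WT, against 3.91, 14.9 and 39.7 CPM in old WT and 7.80, 4.79 and 42.5 CPM in old KO. The highest value of each old group overlapped the lowest young WT value, and old KO library 3 was the only old library above background. For Ugcg, old WT against young WT was at -2.39 ± 1.28 (edgeR adjusted p = 0.105), and old KO against young WT at -2.48 ± 1.28 (edgeR adjusted p = 0.105), which was called without old KO library 3 (-4.02) and by DESeq2 (-4.33). The former was called with TMM factors (-6.42) and DESeq2 (-6.24). Old KO against old WT was at -0.09 ± 1.22 (edgeR adjusted p = 0.955); its sign turned with TMM factors (2.38).

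Sgms1 was at 90.7, 151 and 31.6 CPM in young WT, against 21.9, 30.2 and 42.9 CPM in old WT and 5.72, 417 and 22.7 CPM in old KO. Old KO libraries spread over the widest range, with the second above all others and the first below all others. Old KO library 2 carried its change against old WT, 2.23 ± 1.36 (edgeR adjusted p = 0.228; called by DESeq2, 3.50), which was -1.16 without that library. For Sgms1, old WT against young WT was at -1.52 ± 1.33 (edgeR adjusted p = 0.320), called with TMM factors (-5.54) and DESeq2 (-5.48). Old KO against young WT was at 0.71 ± 1.31 (edgeR adjusted p = 0.657), with the sign turned by TMM factors (-1.70), DESeq2 (-1.98) and limma-voom (-1.04).

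Cerk was at 0.297, 38.0 and 33.2 CPM in young WT, against 4.30, 6.04 and 11.9 CPM in old WT and 1.78, 74.5 and 0.855 CPM in old KO. Like Sgms1, it had its highest value in old KO library 2, while the other old KO libraries were at background. Samd8 was at 0.635, 38.3 and 0.226 CPM in young WT, against 289, 19.7 and 14.2 CPM in old WT and 2.97, 6.56 and 3.82 CPM in old KO. Old WT library 1 held its only value above background among old libraries, at 19.5 times background. Sgms2 was above background in no library.

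Sphingomyelinases return sphingomyelin to ceramide. Smpd1, the acid sphingomyelinase of lysosomes at chr7:105554360-105558389, was high in every young library and low in every old one. It was at 53.7, 126 and 45.5 CPM in young WT, against 1.96, 11.4 and 7.83 CPM in old WT and 3.86, 2.39 and 0.456 CPM in old KO. The young WT range lay apart from both old ranges, and old values were 0.302 to 1.99 times background in old WT and 0.432 to 2.33 times in old KO. Smpd1 fell by 5.07 ± 1.37 on the log2 scale in old KO against young WT (edgeR adjusted p = 0.0112, lower in 3 of 3 libraries), a call kept in all 9 fits that left out 1 library. In old WT against young WT it fell by 3.41 ± 1.27 (edgeR adjusted p = 0.0239, lower in 3 of 3 libraries), which was lost without old WT library 1 (-2.96) or 3 (-3.49). Old KO against old WT was at -1.66 ± 1.20 and was not called (edgeR adjusted p = 0.286; 0.04 with TMM factors). Ormdl3 and Smpd1 were both called lower in old WT against young WT, but in old KO Ormdl3 was above background in 3 of 3 libraries and Smpd1 in 0 of 3.

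Smpd2, a neutral sphingomyelinase at chr10:41485642-41490369, was at 30.9, 35.6 and 58.8 CPM in young WT, against 5.08, 0 and 3.77 CPM in old WT and 3.42, 5.58 and 72.7 CPM in old KO. All young WT values exceeded all old WT values, and old KO library 3 exceeded them all. The old WT values were 0 to 0.587 times background, and old KO library 3 was the only old library above it. Smpd2 fell in old WT against young WT by 3.81 ± 1.56 on the log2 scale (edgeR adjusted p = 0.0376, lower in 3 of 3 libraries). The call was lost without young WT library 3 (-3.48) and without old WT library 1 (-4.46), 2 (-3.23) or 3 (-4.01), and with a minimum of 50 counts in 3 libraries (-3.81). DESeq2 gave no adjusted p, and so no call, for Smpd2. Against old WT, old KO was at 3.19 ± 1.52 (edgeR adjusted p = 0.172) and at 0.59 without old KO library 3. Of the exon bases of Smpd2, 20.3% are shared with Mical1 on the opposite strand. Smpd4 was at 9.12, 17.2 and 0.677 CPM in young WT, against 11.3, 20.03 and 34.8 CPM in old WT and 28.9, 7.36 and 5.13 CPM in old KO, above background in young WT libraries 1 and 2 and old KO library 1. Smpd3 was above background in no library.

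Ceramidases, which free sphingosine for phosphorylation by sphingosine kinases, had 3 of 15 pairs of gene and library above background for young WT, 1 for old WT and 2 for old KO. Asah1, the acid ceramidase, was above background in young WT library 1 at 84.2 CPM and in old KO library 3 at 58.3 CPM. In young WT library 3 it missed the threshold with 4.97 times background. Asah2, the neutral ceramidase, was at 5.04, 13.0 and 0.516 CPM in young WT, against 11.1, 12.1 and 30.5 CPM in old WT and 4.31, 9.22 and 3.02 CPM in old KO. Only the first and second young WT libraries were above background for Asah2. Acer1, an alkaline ceramidase, was above background in old WT library 1 at 226 CPM and in old KO library 2 at 40.0 CPM and in no young WT library, where it was at most 0.178 CPM. Acer2 and Acer3 were above background in no library.

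Glycosphingolipids and sulfatides are taken apart in lysosomes by Hexa, Glb1, Gla, Galc and Arsa with the saposins made from Psap, while Gba2 is a non-lysosomal glucosylceramidase. Hexa, the alpha subunit of beta-hexosaminidase at chr9:59539540-59565109, had the highest mean young WT level per exon length of the 39 genes, 90.3 ± 58.8 RPKM (SD, n = 3), followed by Cers2 at 54.0 ± 29.4 RPKM and Ormdl3 at 44.7 ± 24.1 RPKM. The spread over young WT libraries was larger than the gaps between these levels. Hexa was at 45.8, 262 and 233 CPM in young WT, against 941, 17.2 and 18.9 CPM in old WT and 5.57, 7.98 and 284 CPM in old KO. Each old group had 1 library above the young WT range and 2 below it. Hexa was above background in every old KO library, though in the first and second only by 5.61 and 6.19 times, close to the threshold of 5, and old WT library 2, with 54 counts, just missed it. Old WT against young WT was at 0.85 ± 1.56 (edgeR adjusted p = 0.642), but at -3.32 without old WT library 1, and the sign also turned with TMM factors (-2.82) and limma-voom (-0.87). Old KO against old WT was at -1.72 ± 1.59 (edgeR adjusted p = 0.387), or 2.46 without old WT library 1 and 0.53 with TMM factors. Old KO against young WT was at -0.86 ± 1.56 (edgeR adjusted p = 0.649), and was called without old KO library 3 (-4.73).

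Glb1, the lysosomal beta-galactosidase at chr9:114401076-114474898, was at 15.7, 117 and 45.7 CPM in young WT, against 7.62, 612 and 8.41 CPM in old WT and 2.01, 1.95 and 1.77 CPM in old KO. Old KO values lay below all others at 1.00 to 1.86 times background, and old WT library 2 lay above all others at 118 times background. Glb1 fell by 4.96 ± 1.66 on the log2 scale in old KO against young WT (edgeR adjusted p = 0.0216, lower in 3 of 3 libraries). That call was lost without young WT library 2 (-4.01) or old KO library 2 (-4.98), and with the 50-count minimum (-4.96). For Glb1, old KO against old WT was at -6.77 ± 1.80, not called (edgeR adjusted p = 0.148), and at -2.07 without old WT library 2. DESeq2 (-5.53), no filter and the 6-library fit (-6.77 each) called it. Old WT against young WT was at 1.82 ± 1.44 (edgeR adjusted p = 0.273), or -2.89 without old WT library 2, with the sign also turned by TMM factors (-1.67), DESeq2 (-1.48) and limma-voom (-0.21).

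Psap, the saposin precursor, was at 18.9, 87.0 and 129 CPM in young WT, against 9.58, 7.95 and 25.8 CPM in old WT and 3.42, 4.87 and 149 CPM in old KO. As for Smpd2, old KO library 3 was the only old library above background. Its fold change was -2.44 ± 1.44 in old WT against young WT (edgeR adjusted p = 0.140) and in old KO against old WT 1.86 ± 1.41 (edgeR adjusted p = 0.305) or -1.80 without old KO library 3. TMM factors (-6.45) and DESeq2 (-6.21) called the first of these, and DESeq2 (3.90) the second. Arsa, the sulfatide-cleaving arylsulfatase, was at 38.4, 0.178 and 20.9 CPM in young WT, against 5.47, 3.50 and 6.96 CPM in old WT and 174, 0.798 and 0.741 CPM in old KO. Here old KO library 1 was the high one, at 95.1 times background. Gba2 was at 0.405, 9.54 and 10.7 CPM in young WT, against 8.60, 13.7 and 28.1 CPM in old WT and 3.05, 6.11 and 2.62 CPM in old KO, above background in every young WT and no old library. Galc was above background only in old KO library 3, at 56.2 CPM, and Gla in no library. Aldh3a2, a fatty aldehyde dehydrogenase that acts after sphingosine 1-phosphate is cleaved, was at 4.16, 31.9 and 0.838 CPM in young WT, against 15.1, 8.27 and 22.3 CPM in old WT and 2.97, 19.1 and 2.74 CPM in old KO. It was above background in young WT libraries 1 and 2 and in old KO library 2, there by 5.25 times.

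**Figure D4:**
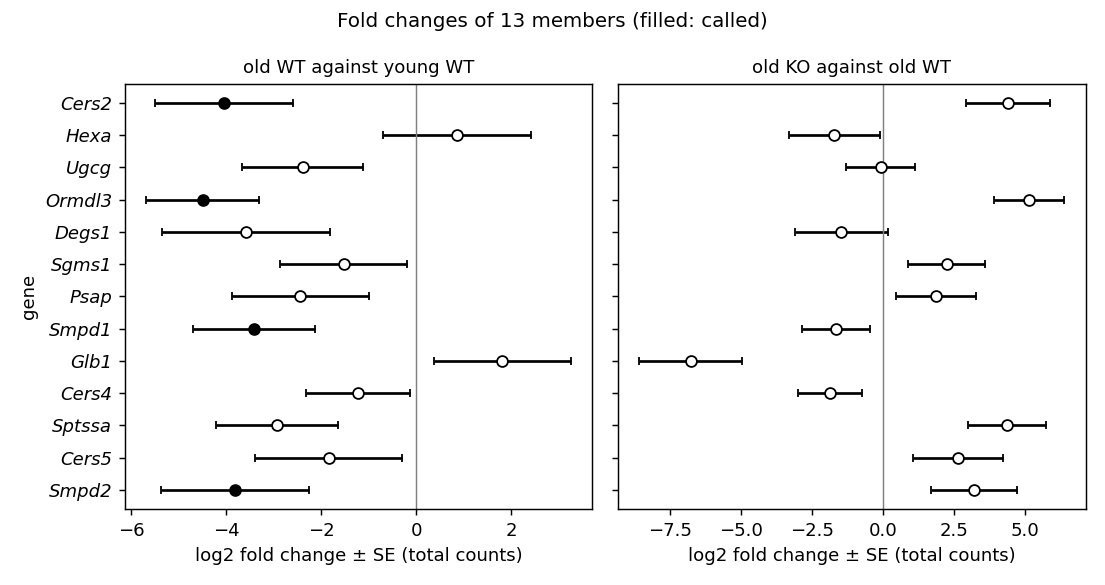
Log2 fold change ± SE (x axis) of 13 genes (y axis) in old WT against young WT (left) and old KO against old WT (right), from the edgeR fit scaled to total counts in genes, filled where called. Ormdl3, Cers2, Smpd1 and Smpd2 are filled on the left and no gene is filled on the right.

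The ranges of the 3 libraries can be set side by side without a model. Against old WT, 2 of the 39 genes (Sptssa and Ormdl3) had old KO values all above the old WT values, as had 1.91% of all tested genes. Another 15 had old KO values all below the old WT values, as had 48.8% of tested genes, and 7 of these 15 (Sptlc1, Cers4, Cers6, Samd8, Asah2, Gba2 and Glb1) were above background in at least 2 libraries of some group. Ranges overlapped for the remaining 22. No old KO value of those 7 was above background.

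Most of the genes called higher in old groups were near background there. Of the 12 called higher in old WT against young WT, 11 were above background in 0 old WT libraries and 10 in 0 young WT libraries, with log2 fold changes of 3.53 to 9.41 (edgeR adjusted p = 0.000697 to 0.00728). They were Sptlc3, Sptssb, Cers1, Cers3, Degs2, Smpd3, Sgms2, Acer1, Acer2, Acer3, Galc and Gla. Of the 9 called higher in old KO against young WT, 7 were above background in 0 old KO libraries. The exceptions were Acer1 in both old groups and Galc in old KO. Acer1 was at 47.9 times background in old WT library 1 and 25.5 times in old KO library 2. Galc was at 11.9 times background in old KO library 3. The 8 genes never above background (Sptlc3, Sptssb, Degs2, Smpd3, Sgms2, Acer2, Acer3 and Gla) were at 0 to 0.709 CPM for young WT, 0.636 to 42.9 CPM for old WT and 0 to 11.5 CPM for old KO. In units of each library's background the same genes were at 0 to 2.69, 0.113 to 2.20 and 0 to 3.13 times, ranges that overlapped. Another 6 genes (Ormdl1, Cers1, Cers3, Asah1, Acer1 and Galc) were above background in at most 1 library of each group. Cers1 and Cers3 were so in young WT library 1 alone, at 0.351 and 0.284 CPM, and Cers1 shares 42.5% of its exon bases with Gdf1 on the same strand.

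A second list held 33 other sphingolipid genes, for transport of ceramide and glycolipids, elongation of very long fatty acids, glycosphingolipid assembly and lysosomal breakdown. Of these 16 were above background in 2 or more libraries of young WT, 0 of old WT and 5 of old KO. In old WT against young WT 4 were called lower, 11 higher and 18 not, and in old KO against young WT 4 lower, 8 higher and 21 not. Old KO against old WT gave 0 calls. None of the genes called higher was above background in at least 2 libraries of a group. The glycolipid transfer protein Gltp was at 259, 154 and 146 CPM in young WT, against 5.47, 3.18 and 10.4 CPM in old WT and 296, 31.7 and 17.9 CPM in old KO. Like Ormdl3 and Sptssa, Gltp was above background in all young WT and all old KO libraries and in no old WT library, and it fell in old WT against young WT by 4.87 ± 1.35 on the log2 scale (edgeR adjusted p = 0.00431). The other genes called lower in old WT, Elovl1, Hacd2 and Hsd17b12, were called lower in old KO against young WT too. All were above background in every young WT library and in no old WT library. In old KO Elovl1 was above it in 1 library, and Hacd2 and Hsd17b12 in none. Elovl1 was at 159, 16.4 and 127 CPM in young WT, against 5.08, 3.50 and 11.3 CPM in old WT and 2.45, 7.27 and 15.7 CPM in old KO. Of the other fatty acid elongation genes listed, Elovl3 and Elovl4 were called higher in both comparisons, at background, while Elovl6, Elovl7, Hacd1, Hacd3 and Tecr were not called in either. Elovl1, an elongase, fell by 3.93 ± 1.32 in old WT (edgeR adjusted p = 0.0136) and by 3.57 ± 1.29 in old KO (edgeR adjusted p = 0.0295). Hacd2, a dehydratase of fatty acid elongation, fell by 3.03 ± 1.12 (edgeR adjusted p = 0.0233) and by 5.44 ± 1.26 (edgeR adjusted p = 0.00889) in the same order. Hsd17b12, a ketoreductase of elongation, fell by 3.62 ± 1.16 (edgeR adjusted p = 0.0103) and by 5.12 ± 1.24 (edgeR adjusted p = 0.00927).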

How the data were processed

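Poly(A)-tailed complementary DNA from 9 sorted-cell samples was amplified for 13 cycles and read as 150 bp pairs, per the labels' protocols. The deposited table holds the authors' raw read counts by Ensembl gene, each library in its own column. Tools named in the submitters' processing notes are HTSeq 0.10.0, STAR 2.6.1d, Trim Galore 0.6.2 and edgeR 3.24.3, with the build mm10. Which annotation and strand setting were used is not given in the sources used here. Of the 39 genes, 10 share exon bases with another protein-coding gene, 3 of them on the same strand, so their reads may be shared or left uncounted. The 5 lines that name no gene stayed out of library sizes and tests (reads outside genes made up 6.51% to 87.7% of a library's counts, ambiguous reads 0.619% to 5.48%).

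Symbols, coordinates and exon lengths came from GENCODE M21 (GRCm38), and 52403 of 52550 rows had a symbol. The main test was edgeR 4.0.16's quasi-likelihood F test in R 4.3.3 fitted to the deposited counts with group means over all 9 libraries, filterByExpr, scaling to total counts in genes and Benjamini-Hochberg adjustment over 32582 genes. Total counts, the scaling of CPM, were used because TMM takes the many genes at background as unchanged and the libraries differ in background. Total counts in genes include background reads too, so this scaling does not remove them. Alternatives were TMM factors, DESeq2 1.42.0, limma-voom (limma 3.58.1), no filter, at least 50 counts in 3 libraries, subtraction of the olfactory receptor background (keeping 8629 genes above it in 2 or more libraries of some group), fits to the 6 libraries compared, a block for the replicate number and fits without each library. Scripts were tested on simulated data in which groups shared a mean profile apart from genes given a known change. Those data held no difference in background between groups, so they cannot show how background affects the calls. Library replicates correlated at 0.487 to 0.590 on the log2 CPM scale (prior count 3).

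Values in every library are given for the 25 genes above background in at least 2 libraries of a group. Fold changes are given for the 12 of these with the highest mean CPM in young WT and for any other called in old WT against young WT or old KO against old WT. In old KO against young WT they are given for those called and for the 6 of highest mean CPM. The genes, lists and rules were chosen with earlier results of these data known. Values of 1 gene that the rule for other sphingolipid genes would name are not reported here.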

Additional observations from a re-analysis of the deposited data

How the results depend on the processing

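Fold changes are log2 values, and the cause of each change of call or sign below was not tested. In old WT against young WT the 16 calls among the 39 genes became 5 with the 50-count minimum (29 of the 39 fitted) and 0 with background subtracted (25 fitted), and 12 to 19 without 1 library. TMM factors and DESeq2 gave 21 calls each, and split them into 4 higher and 17 lower where scaling to total counts gave 12 and 4. Among all genes, 23414 calls became 12058 with TMM factors, 3724 with the 50-count minimum and 13 with background subtracted. Of the calls, 95.2% were higher with total counts, 50.3% with TMM factors and 61.7% with DESeq2.

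In old KO against old WT the 0 calls became 1 with TMM factors, limma-voom or no filter and 7 with DESeq2 or the 6-library fit, and stayed 0 in all 9 fits without 1 library. The 2 calls among all genes became 149 with TMM factors, 2181 with DESeq2, 319 with limma-voom, 116 with no filter, 12 with the 50-count minimum, 16 with background subtracted, 8046 in the 6-library fit and 0 to 5 without 1 library. The 13 calls in old KO against young WT became 6 with TMM factors, 5 with the 50-count minimum, 0 with background subtracted and 8 (without old KO library 2) to 15 without 1 library. The 18438 calls among all genes became 4158 with TMM factors, 9154 with DESeq2, 3304 with the 50-count minimum, 4 with background subtracted and 11182 in the 6-library fit.

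Signs of uncalled changes turned as follows. In old WT against young WT, Hexa (0.85) was at -2.82 with TMM factors, -0.87 with limma-voom, -0.08 with the replicate block and -3.32 to 1.41 without 1 library. Glb1 (1.82) was at -1.67 with TMM factors, -1.48 with DESeq2, -0.21 with limma-voom and -2.89 to 2.77 without 1 library. In old KO against old WT, TMM factors gave 0.53 for Hexa, 2.38 for Ugcg, 0.29 for Degs1, 0.04 for Smpd1 and 0.14 for Cers4. Ugcg (-0.09) was also at 1.91 with DESeq2, 0.23 with background subtracted and 0.02 with the replicate block. Without 1 library these changes ranged from -5.59 to 2.46 for Hexa, -1.63 to 0.97 for Ugcg, -1.16 to 2.80 for Sgms1, -1.80 to 2.58 for Psap and -0.36 to 3.20 for Cers5. Cers2 (0.35) in old KO against young WT was at -1.12 with TMM factors, -1.40 with limma-voom, -0.89 with the replicate block and -3.38 to 0.92 without 1 library. Ormdl3 (0.65) was at -1.45 with TMM factors and -1.71 with DESeq2. Sgms1 (0.71) was at -1.70 with TMM factors, -1.98 with DESeq2, -1.04 with limma-voom, -0.53 with the replicate block and -2.68 to 1.28 without 1 library.

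Same-numbered libraries of different groups deviated together at correlations of -0.0212 to 0.0416, so the numbers were not taken as pairs. With the replicate block the calls among the 39 genes were 16, 0 and 11 for the 3 comparisons, and among all genes 23142, 2 and 15641. In old KO against young WT the block lost the calls of Degs1 (-3.75) and Cers4 (-2.94). The count of gene and library pairs above background was 99, and became 117 at 3 times background, 88 at 10 times and 99 with a minimum of 10 counts. The old WT libraries limit the comparisons that use them, since a level below 5 times their background was not read as expression.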
